A study of Mus musculus with 8 samples.

Results

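The 7 genes described here encode transcription factors that direct blood progenitors into the myeloid lineage: Cebpa, Cebpb, Cebpd, Cebpe, Cebpg, Spi1 and Gfi1. They were chosen by gene symbol, each as the probe set that carries that symbol alone in the platform annotation, and all 7 were found among the 19938 genes tested. Each had 1 probe set, so no choice between probe sets was needed, and no filter on low values was applied. The 7 were measured in mouse bone marrow cells of C57Bl/6 animals, on 4 arrays labelled KLF7 and 4 arrays labelled control. Marrow cells bearing the receptor c-Kit received a lentivirus for KLF7, a zinc finger factor of the Krüppel-like family, or a control lentivirus. After 72 hours, cells that lacked lineage markers and bore c-Kit and Sca-1 were sorted. Each sort gave total RNA, which was amplified and hybridised to 1 array. The labels give neither the age of the animals nor the promoter of the virus. They also leave it unsaid whether replicates are separate cultures or mice, so the p-values here reflect spread among these arrays, which may be technical.

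The 5 C/EBP genes encode basic leucine zipper factors that bind DNA as pairs with each other or with relatives. C/EBPa starts the granulocyte and monocyte programme, C/EBPe is needed for late granulocyte maturation, and C/EBPb and C/EBPd act in emergency granulopoiesis and inflammation. C/EBPg has no strong activation domain and pairs with other C/EBP factors or with ATF4. Spi1 encodes PU.1, an ETS factor needed for monocytes, granulocytes and B cells, and Gfi1 encodes a zinc finger repressor that favours granulocytes over monocytes. In progenitors the balance between PU.1, C/EBPa and GFI1 is known to bias the choice between these fates.

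In GRCm38.p6, Cebpa lies at chr7:35119293-35121928 and Cebpg near it at chr7:35046422-35056566. Cebpb lies at chr2:167688915-167690432, on the chromosome that also carries Spi1, at chr2:91082374-91115759. Cebpd lies at chr16:15887286-15889545, Cebpe at chr14:54710363-54712174 and Gfi1 at chr5:107716655-107725805.

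Values are log2 intensities, in which 1 unit is a doubling, and every difference is the KLF7 mean minus the control mean. The transduced gene checked the labels: the array labelled KLF7 2 had a Klf7 level of 10.19 and the array labelled control 2 one of 10.28, the single pair of 16 in which the control array was higher. The difference for Klf7 was 1.76 (SE 0.46), and an exact permutation test, two-sided, gave p = 0.0571, where 70 splits allow no p below 0.0286. The arrays numbered 4 stood apart in both groups for several myeloid genes. Results are therefore also given without both arrays numbered 2 and without both arrays numbered 4. Of the gate's own markers, Kit was at 10.52, 9.96, 10.37 and 7.85 on KLF7 1 to 4, against 9.57, 9.85, 9.69 and 8.33 on control 1 to 4, lowest on both arrays numbered 4. Ly6a, the Sca-1 gene, was not analysed here. Of 7 measured stem and progenitor genes 5 had higher means on KLF7 arrays (50.4% of all genes had). The smallest p was that of Hlf, a stem cell factor gene, at -0.90 (SE 0.23, adjusted p 0.327 in limma, no overlap). The granulocyte surface marker Ly6g, which a lineage-negative gate usually removes, was at 4.15 ± 0.58 on KLF7 arrays and 4.12 ± 0.16 on control arrays (SD, n = 4 each). Another lineage marker, Itgam, was bright on all arrays, at 9.43 to 10.47 on KLF7 arrays and 9.23 to 9.59 on control arrays.

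The comparison asked how expression differs between cells transduced with KLF7 and control cells. All 5 C/EBP genes and Gfi1 had lower means on the KLF7 arrays, by 0.09 to 0.59 log2 units, and Spi1 had a higher mean, by 0.33. None of the 7 passed the test: in limma with Benjamini-Hochberg adjustment over all genes the smallest adjusted p among them was 0.656, for Cebpa. The same fit called 0 of 19938 genes (0.0%) at an adjusted p under 0.05, with 8.21% at an unadjusted p under 0.05 (4.65% higher and 3.56% lower), a level that 0 of the 7 reached. The groups overlapped for all 7, where 5.22% of all genes had groups that did not overlap. Of all genes 49.6% had a lower mean on KLF7 arrays, against 6 of these 7. The median difference of the 7 was -0.29, beside 0.002 over all genes, -0.45 without both arrays numbered 2 and -0.36 without both arrays numbered 4. In each of these settings 6 of 7 were lower, while without KLF7 1 it was 5 of 7. At an unadjusted p under 0.05 there was 1 of the 7 without both arrays numbered 2 (Cebpa, where 5.9% of all genes were) and 1 without both numbered 4 (Gfi1, where 9.66% were). In a bulk sample, fewer cells that express a gene and less of its RNA in each cell cannot be told apart.

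**Figure D1:**
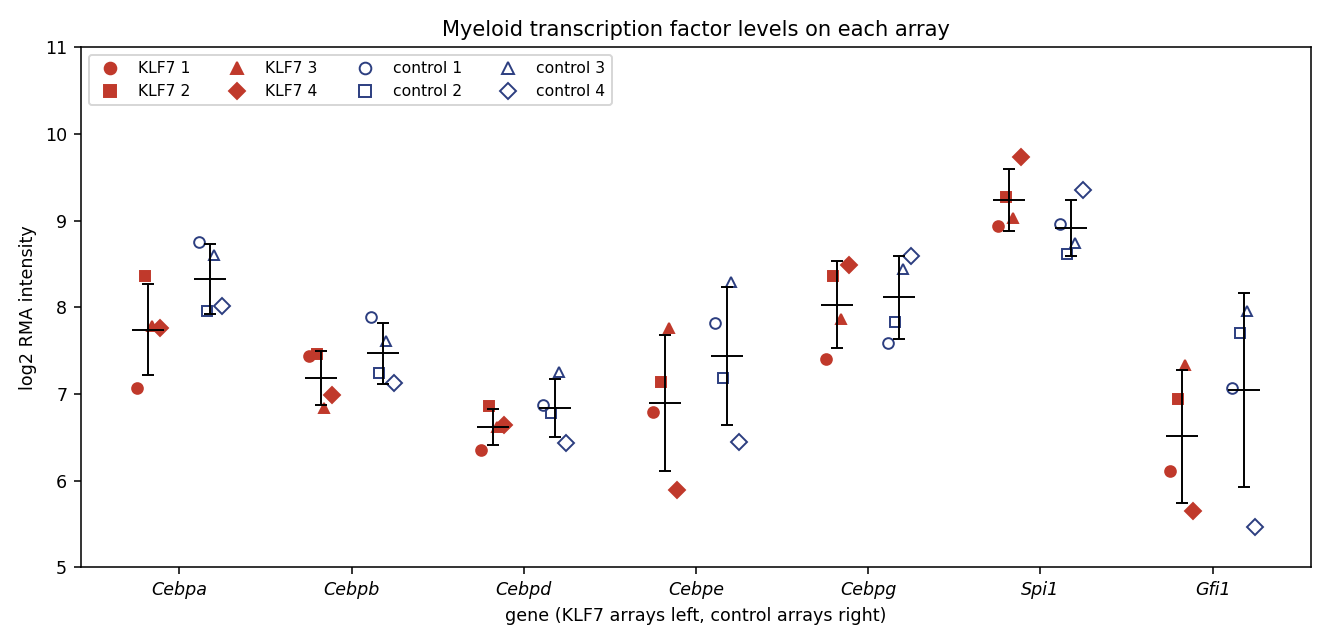
Log2 RMA intensity of the 7 genes on each array, with KLF7 arrays filled and on the left of each pair and control arrays open and on the right. Horizontal bars are group means and error bars are SD (n = 4 each); the groups overlap for every gene, and the diamonds, the arrays numbered 4, lie lowest for Gfi1 and Cebpe in both groups.

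Cebpa, the factor that starts the granulocyte and monocyte programme, had levels of 7.07, 8.36, 7.78 and 7.76 on the arrays KLF7 1 to 4, against 8.75, 7.96, 8.60 and 8.01 on control 1 to 4. The array KLF7 1 was the lowest of the 8 and control 1 the highest, and the groups overlapped through KLF7 2 alone, which lay above control 2 and control 4. The mean was 7.74 ± 0.53 on KLF7 arrays and 8.33 ± 0.40 on control arrays (SD, n = 4 each). The difference was -0.59 (SE 0.29, 1.5-fold lower, 95% interval -1.23 to 0.05), with an unadjusted p of 0.0686 and an adjusted p of 0.656 in limma. In 14 of the 16 pairs of a KLF7 and a control array, the control array was higher. Leaving out 1 array moved the difference to between -0.79 (without KLF7 2) and -0.36 (without KLF7 1). It was -0.92 without both arrays numbered 2, the arrays whose Klf7 levels went against their labels, and -0.70 without both numbered 4.

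The window of 250 bases before the RefSeq start of a gene was searched for letters that KLF and SP factors are known to bind. Windows from RefSeq, in GRCm38.p6, were used for 4 of the 7 genes, Cebpa, Cebpb, Cebpg and Gfi1. Those of Cebpd, Cebpe and Spi1 were not analysed here. For Gfi1, only counts are given. No difference of these genes passed the test, and a link between the letters and the levels was not tested. The windows of Cebpa, Cebpb and Cebpg are shown. Each is printed 5′ to 3′ on the strand of its gene, with matches to CCNCNCCC on either strand in capitals.
Cebpa, chr7:35119043-35119292, plus strand: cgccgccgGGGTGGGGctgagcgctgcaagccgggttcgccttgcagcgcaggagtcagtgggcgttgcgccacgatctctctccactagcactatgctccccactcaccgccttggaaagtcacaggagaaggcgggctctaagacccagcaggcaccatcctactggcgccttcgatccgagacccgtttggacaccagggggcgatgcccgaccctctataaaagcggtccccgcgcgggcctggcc
Cebpb, chr2:167688665-167688914, plus strand: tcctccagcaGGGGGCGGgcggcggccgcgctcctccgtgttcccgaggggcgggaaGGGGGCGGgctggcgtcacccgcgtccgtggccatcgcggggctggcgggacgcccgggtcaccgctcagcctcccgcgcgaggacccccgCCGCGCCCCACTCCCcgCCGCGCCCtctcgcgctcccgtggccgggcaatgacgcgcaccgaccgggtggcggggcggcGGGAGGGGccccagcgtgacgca
Cebpg, chr7:35056567-35056816, minus strand: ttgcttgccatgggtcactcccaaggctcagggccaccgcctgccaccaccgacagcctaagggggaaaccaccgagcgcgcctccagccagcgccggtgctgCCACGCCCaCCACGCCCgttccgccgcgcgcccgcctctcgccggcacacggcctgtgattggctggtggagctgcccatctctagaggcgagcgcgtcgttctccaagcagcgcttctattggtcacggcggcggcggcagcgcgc

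The Cebpa window held 1 match, which overlaps its 1 match to the shorter box CACCC, and 66.4% of its bases were G or C. Cebpb held 6 matches, 2 of which overlap, and 2 CACCC boxes in a window of 81.6% G and C, and Cebpg held 2, side by side, at 70.8%. The windows before the 2 starts of Gfi1 held 1 and 2 matches. These letters are common: of 32851 windows of the same length, 45.9% held at least 1 match, and 52.0% held CACCC. TTGCNNAA, the core letters of a C/EBP site, was found in 9.56% of windows and in 1 of the 5 windows of these genes, before 1 start of Gfi1. GAGGAAGT, bound by PU.1, was in 2.44% of windows and AAATCAC, bound by GFI1, in 2.75%, and neither was in a window of these genes. Both strands were searched for each, and a match describes letters, not binding.

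Cebpb, a factor of emergency granulopoiesis, was measured at 7.44, 7.46, 6.84 and 6.99 on KLF7 1 to 4, against 7.89, 7.24, 7.61 and 7.13 on control 1 to 4. KLF7 3 and KLF7 4 lay below every control array, while KLF7 1 and KLF7 2 lay among them. The means were 7.18 ± 0.31 and 7.47 ± 0.35 (KLF7 and control, SD, n = 4 each), a difference of -0.29 (SE 0.22, adjusted p 0.837 in limma). Without control 1 the difference was -0.15, without KLF7 3 it was -0.17, and without both arrays numbered 2 it was -0.45.

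Cebpd, which acts beside C/EBPb in inflammation, had levels of 6.35, 6.86, 6.61 and 6.64 on KLF7 1 to 4, against 6.87, 6.78, 7.25 and 6.44 on control 1 to 4. Control 3 was the highest of the 8 arrays and KLF7 1 the lowest, with the other 6 intermixed. The difference was -0.22 (SE 0.20, adjusted p 0.876 in limma), and it lay between -0.35 (without control 4) and -0.08 (without control 3), with -0.13 without KLF7 1 and -0.36 without both arrays numbered 4. Cebpb and Cebpd had the smallest root mean square difference of the 21 pairs of these genes, 0.30 log2 units over the 8 arrays after each gene was centred on its mean. The measure is small for genes that vary little, and these were the 2 least variable members, with SDs over all arrays of 0.34 and 0.28. The next pair was Cebpa and Cebpd, at 0.33.

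Cebpg, the partner factor without a strong activation domain, had a difference whose sign depended on single arrays. Its levels were 7.41, 8.36, 7.86 and 8.49 on KLF7 1 to 4, against 7.59, 7.83, 8.45 and 8.60 on control 1 to 4. In each group the array numbered 1 was the lowest and the array numbered 4 the highest. The difference was -0.09 (SE 0.30, 95% interval -0.75 to 0.58, adjusted p 0.978 in limma), and it was 0.12 without KLF7 1, 0.07 without control 4 and 0.02 without control 3.

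Cebpe, the factor of late granulocyte maturation, was at 6.79, 7.14, 7.76 and 5.89 on KLF7 1 to 4, against 7.82, 7.18, 8.29 and 6.45 on control 1 to 4. The arrays numbered 4 were the lowest and those numbered 3 the highest in their group. The difference was -0.54 (SE 0.44, 1.46-fold lower, 95% interval -1.52 to 0.44), with an adjusted p of 0.848 in limma. It was -0.21 without KLF7 4, -0.26 without control 3, -0.83 without KLF7 3 and -0.87 without control 4. Without both arrays numbered 2 it was -0.71, and without both numbered 4 it was -0.54. With the replicate number as a block in the fit, the SE was 0.18 (unadjusted p 0.0149, adjusted p 0.222 in limma). The spread within groups, an SD of 0.79, was larger than that of 98.0% of genes.

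Gfi1, the repressor that favours granulocytes, had levels of 6.12, 6.94, 7.34 and 5.65 on KLF7 1 to 4, against 7.07, 7.70, 7.95 and 5.47 on control 1 to 4. As for Cebpe, the arrays numbered 4 were lowest: KLF7 4 minus the mean of the other KLF7 arrays was -1.15, and control 4 minus that of the other control arrays was -2.11. The difference was -0.54 (SE 0.53, 1.45-fold lower, 95% interval -1.71 to 0.63, adjusted p 0.902 in limma). Control 4 weighed most: without it the difference was -1.07, whereas it was -0.24 without control 3, -0.25 without KLF7 4, -0.32 without control 2 and -0.82 without KLF7 3. The SD within groups was 0.96, above that of 99.1% of genes, and without both arrays numbered 4 the difference was -0.78 (adjusted p 0.509 in limma). With the replicate number as a block in the fit, the SE was 0.197 (unadjusted p 0.0219, adjusted p 0.2645 in limma).

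Spi1, which encodes PU.1, was the 1 member with a higher mean on the KLF7 arrays. It had levels of 8.94, 9.27, 9.03 and 9.74 on KLF7 1 to 4, against 8.96, 8.61, 8.74 and 9.35 on control 1 to 4. The arrays numbered 4 were the highest of their groups, the reverse of their place for Gfi1 and Cebpe, and the KLF7 array was higher in 12 of the 16 pairs. The means were 9.24 ± 0.36 on KLF7 arrays and 8.92 ± 0.32 on control arrays (SD, n = 4 each). The difference was 0.33 (SE 0.24, 1.25-fold higher, 95% interval -0.20 to 0.85), with an adjusted p of 0.815 in limma. It ranged from 0.16 (without KLF7 4) to 0.47 (without control 4) and was 0.22 without both arrays numbered 2.

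**Figure D2:**
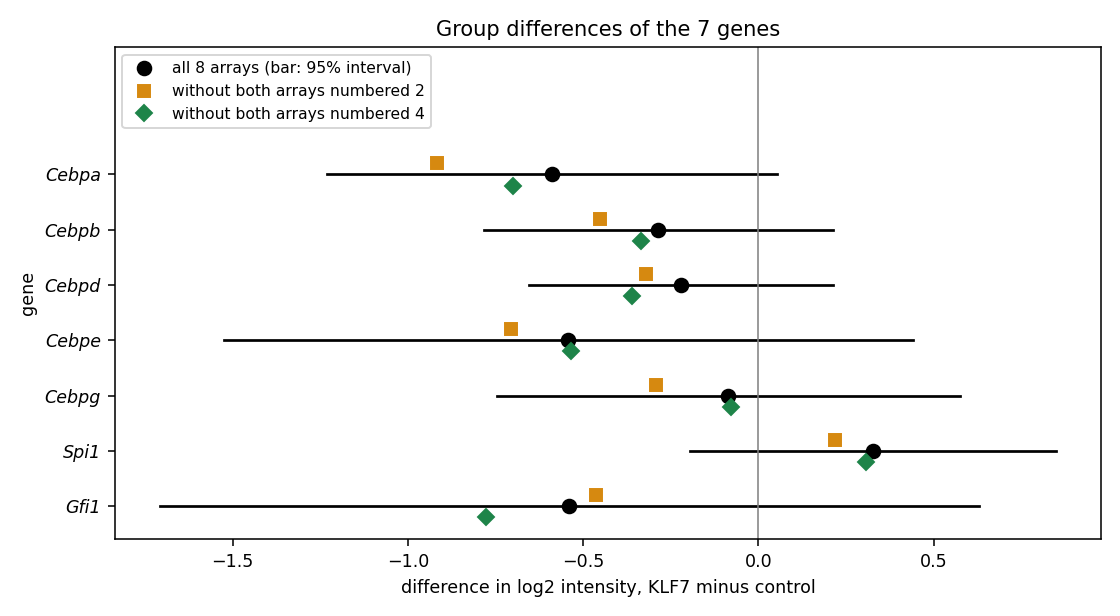
Difference in log2 intensity, KLF7 minus control, for the 7 genes (black points, bars are 95% intervals from limma over all 8 arrays), with the values without both arrays numbered 2 (squares) and without both arrays numbered 4 (diamonds). Every interval crosses 0, with Spi1 at 0.33 and the other 6 between -0.59 and -0.09.

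Because PU.1 and C/EBPa act as a balance, the log2 ratio of Spi1 to each of 3 other members was taken within each array and centred on its mean over the 8 arrays. The ratio of Spi1 to Cebpa was 0.83, -0.14, 0.20 and 0.94 on KLF7 1 to 4, against -0.83, -0.39, -0.90 and 0.30 on control 1 to 4. The array control 4 was the 1 control array above any KLF7 array, lying above KLF7 2 and KLF7 3. The group means were 0.46 ± 0.51 and -0.46 ± 0.55 (KLF7 and control, SD, n = 4 each), a difference of 0.92. The ratio of Spi1 to Gfi1 differed by 0.87, with group SDs of 1.02 for KLF7 and 1.43 for control, and that of Spi1 to Cebpe by 0.87, with SDs of 1.08 and 1.03. Single arrays moved these: for Gfi1 the difference was 0.41 without KLF7 4, 0.51 without control 3, 0.55 without control 2 and 1.54 without control 4. For Cebpe it was 0.37 without KLF7 4, 0.53 without control 3 and 1.34 without control 4. For Cebpa, removing single arrays gave 0.76 to 1.17. The ratio of Gfi1 to Cebpe differed by 0.002, and by -0.20 to 0.30 with single arrays removed. On single arrays it ran from -0.60 on control 4 to 0.91 on control 2. These ratios are descriptions of unequal change between members chosen with earlier results known, and no test was made of them.

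**Figure D3:**
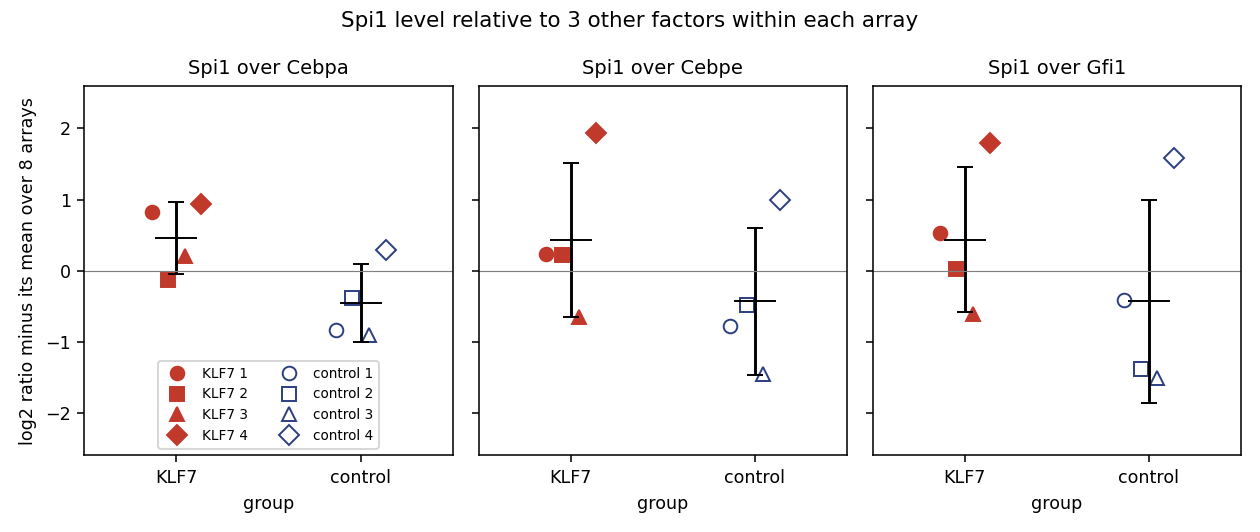
Log2 ratio of Spi1 to Cebpa, Cebpe and Gfi1 on each array, minus its mean over the 8 arrays, with KLF7 arrays left and control arrays right, group means as bars and SD as error bars (n = 4 each). For Cebpa the control arrays lie between -0.90 and 0.30 and the KLF7 arrays between -0.14 and 0.94.

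For 6 of the 7 genes the SD within groups was larger than the difference between them, Cebpa being the exception. Gfi1 and Cebpe had a root mean square difference of 0.43 after centring, and some pairs were closer, such as Cebpg and Spi1 at 0.37. Spi1 and Gfi1 were the least alike of the 21 pairs, at 1.16. The measure is large for genes that vary much, and Gfi1 varied most of the 7. For Gfi1 the genes outside the 7 with the most similar profiles over the 8 arrays were Far2, a fatty acyl-CoA reductase gene (0.22), Car1, a carbonic anhydrase gene (0.24), and Pgr, the progesterone receptor gene (0.26). For Cebpe they were the adhesion gene Vcam1 (0.22), Celsr3, a cadherin gene (0.23), and Fcnb, a granule lectin gene of myeloid cells (0.24). For Cebpa they were Adgrl2, an adhesion receptor gene (0.175), Rrm2, a subunit of ribonucleotide reductase (0.20), and Ifrd2 (0.21). These 3 members had the largest SD over all arrays, at 0.93 for Gfi1, 0.79 for Cebpe and 0.54 for Cebpa.

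Some lists of other cells' markers, though not all, also stood apart on the arrays numbered 4. The 8 markers of mast cells, eosinophils and basophils averaged 6.998 on KLF7 4 and 9.14 to 10.39 on the other KLF7 arrays, against 6.67 on control 4 and 9.22 to 9.84 on the other control arrays. The 6 primary granule genes averaged 8.76, 10.21, 10.26 and 9.02 on the KLF7 arrays, against 10.23, 10.18, 10.76 and 8.66 on the control arrays. The arrays numbered 4, lowest for Gfi1 and Cebpe, were thus the lowest of their groups for the mast cell list, and for the granule list lowest among control arrays and second to KLF7 1 among KLF7 arrays. The 13 markers of monocytes, macrophages and dendritic cells averaged 6.95 to 7.85 on KLF7 arrays and 6.23 to 7.37 on control arrays, and the 7 of mature granulocytes 6.05 to 7.03 and 5.92 to 6.35. The 8 B, T and NK cell markers averaged 4.05 to 4.33 on KLF7 arrays and 4.19 to 4.33 on control arrays, and the 5 erythroid markers 5.74 to 6.20 and 5.91 to 6.30. The 5 megakaryocyte markers averaged 9.31 on KLF7 4 and 7.92 to 8.94 on the other KLF7 arrays, against 9.80 on control 4 and 8.29 to 8.52 on the other control arrays, so that this list, like Spi1, was highest on the arrays numbered 4. The part of any of these cells in the differences of the 7 genes was not tested.

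**Figure D4:**
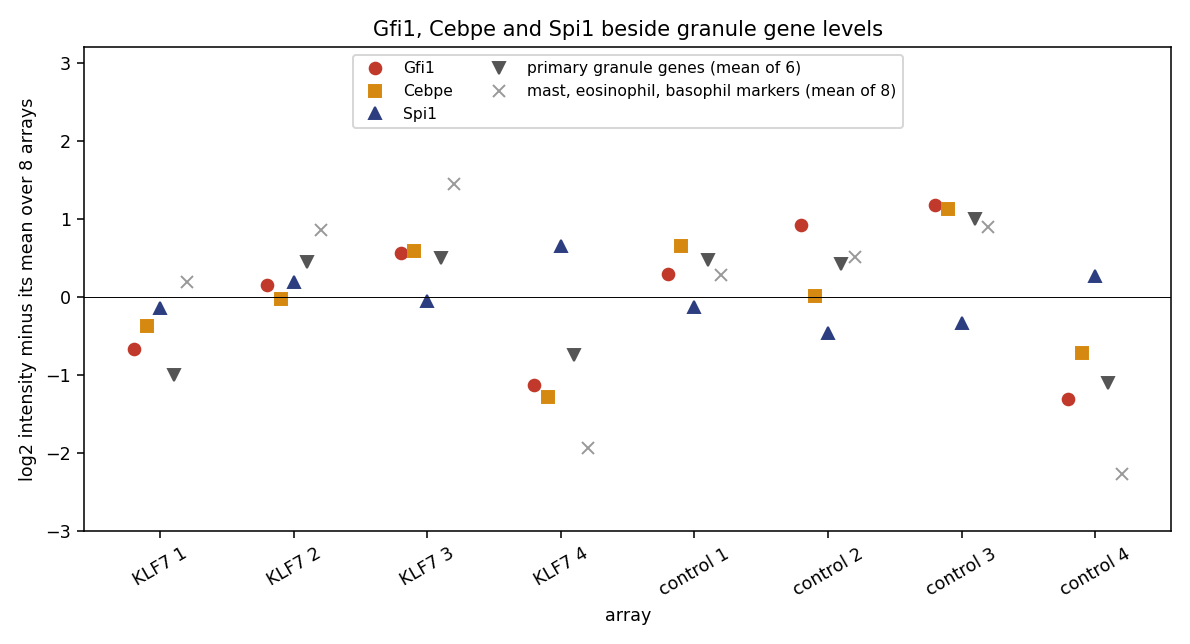
Log2 intensity of Gfi1, Cebpe and Spi1 and mean log2 intensity of 6 primary granule genes and 8 mast cell, eosinophil and basophil markers, each minus its mean over the 8 arrays, for every array. On KLF7 4 and control 4 Gfi1, Cebpe and both lists lie below 0 while Spi1 lies above 0.

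Genes that these factors act on were counted next. Of all genes 50.4% had higher means on KLF7 arrays and 49.6% lower ones, the shares to set beside each count below. Some genes stand in more than 1 list. Receptors come first, since C/EBPa and PU.1 are known to drive the genes of the granulocyte and macrophage growth factor receptors. Of 9 measured cytokine receptor genes 8 had higher means on KLF7 arrays (50.4% of all genes had), with a median difference of 0.36, and 0 passed the test over all genes. The exception was Csf3r, the receptor gene of granulocyte colony-stimulating factor. Its levels were 6.78, 7.18, 7.67 and 6.63 on KLF7 1 to 4, against 7.76, 8.90, 8.33 and 7.79 on control 1 to 4. Every KLF7 array lay below every control array, as was the case in 1 direction or the other for 5.22% of genes. The difference was -1.13 (SE 0.30, 2.19-fold lower), with an adjusted p of 0.351 in limma, and it was -0.94 without both arrays numbered 2 and -1.12 without both numbered 4.

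Other receptor genes lay on the opposite side. Csf2rb, the shared beta chain of the receptors for IL-3, IL-5 and GM-CSF, was at 0.83 (SE 0.29), though its near copy Csf2rb2 may share its probes. Il6ra, the IL-6 receptor gene, was at 0.48 (SE 0.22) and Il6st, its signalling chain, at 0.67 (SE 0.32), with adjusted p values of 0.461, 0.608 and 0.643 in limma for the 3. The list's median lay between 0.25 (without KLF7 1) and 0.59 (without KLF7 3).

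Primary granule genes, which C/EBPa switches on in promyelocytes, had lower means for 5 of 6, with a median of -0.43, and 0 passed. Mpo, the myeloperoxidase gene, was at 9.52, 11.63, 11.79 and 8.72 on KLF7 1 to 4, against 11.95, 11.99, 12.41 and 9.73 on control 1 to 4. In each group the array numbered 4 was lowest, and KLF7 1 was also low, so that the difference of -1.11 carried an SE of 0.75 (adjusted p 0.792 in limma). Elane, the neutrophil elastase gene, was at -1.02 (SE 0.88) and Ctsg, the cathepsin G gene, at -0.46 (SE 0.57). Ctsc, the cathepsin that activates these proteases, lay the other way at 0.71 (SE 0.24, adjusted p 0.442 in limma). The median depended on single arrays: without KLF7 1 it was -0.01, with 3 genes higher and 3 lower, and without control 4 it was -0.80.

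Secondary and tertiary granule genes, the known targets of C/EBPe, were counted beside Cebpe, whose own lower mean did not pass. Of 13, 10 had higher means on KLF7 arrays, the median was 0.20 and 0 passed at either the adjusted or the unadjusted level of 0.05. Lcn2, the lipocalin 2 gene, was at 0.87 (SE 0.73), Mmp8, a collagenase gene, at 0.59 (SE 0.69), Retnlg, a resistin-like gene, at 0.26 (SE 0.21) and Fcnb at -0.41 (SE 0.44). Without KLF7 3 the median was -0.12, and without control 4 it was -0.01.

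**Figure D5:**
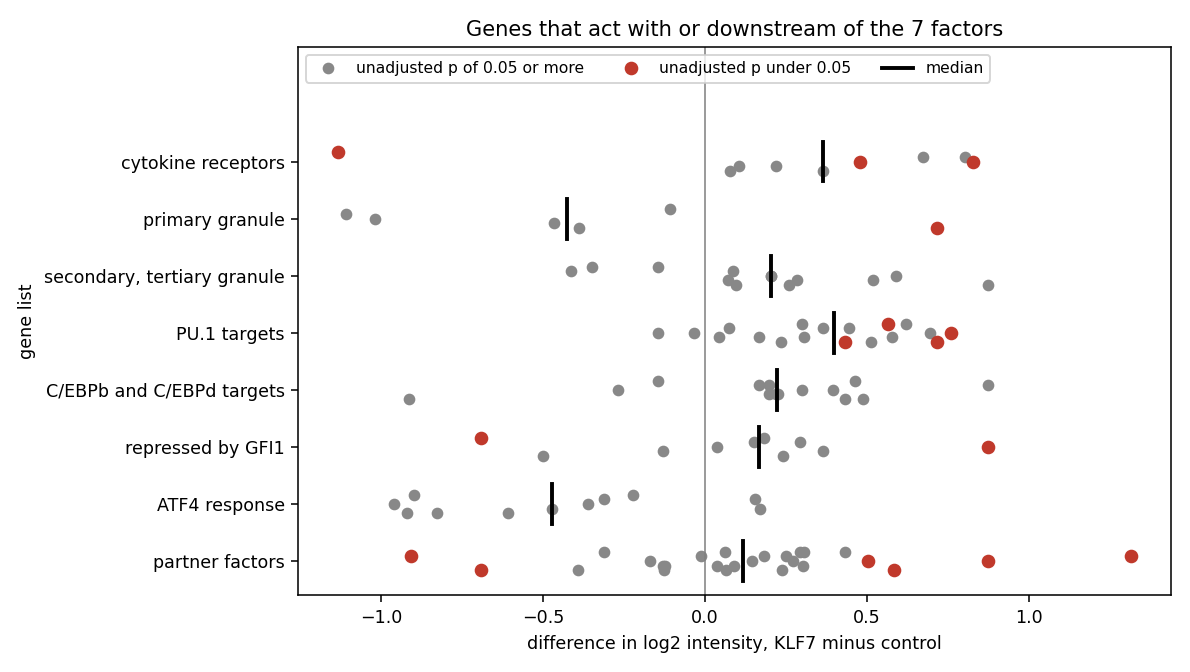
Difference in log2 intensity, KLF7 minus control, of each measured gene in 8 lists of genes that act with or downstream of the 7 factors, with the list median as a bar and genes at an unadjusted p under 0.05 in red (limma). No gene passed at an adjusted p under 0.05; the medians run from -0.47 for the ATF4 response genes to 0.40 for the PU.1 targets.

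Phagocyte genes, the known targets of PU.1, were counted beside Spi1, whose own higher mean did not pass. Of 18 measured, 16 had higher means on KLF7 arrays (50.4% of all genes had), with a median of 0.40, and 0 passed over all genes. At an unadjusted p under 0.05 there were 4, all higher, where 4.65% of all genes were higher at that level. Tyrobp, an adaptor of activating receptors, was at 10.96, 11.35, 10.90 and 11.24 on KLF7 1 to 4, against 10.07, 10.61, 10.17 and 10.57 on control 1 to 4, with no overlap. Its difference was 0.76 (SE 0.20, 1.69-fold higher, adjusted p 0.327 in limma). Itgb2, the CD18 integrin gene, was at 0.71 (SE 0.21), Itgam, the CD11b gene, at 0.56 (SE 0.23) and Fcer1g, an Fc receptor chain gene, at 0.43 (SE 0.18). Without both arrays numbered 2, 13 of 18 were higher with a median of 0.33, and without both numbered 4, 15 of 18 with a median of 0.40. Of the 13 monocyte, macrophage and dendritic cell markers 9 had higher means and 4 lower, with a median of 0.25, which lay between 0.07 (without control 3) and 0.52 (without control 1) when each array was left out. Of these markers 0 passed over all genes. At an unadjusted p under 0.05 there were 5, all higher, where 4.65% of all genes were. Groups did not overlap for 2 of them, where 5.22% of all genes had such groups. These were Ccr2, at 0.62 (SE 0.18), and Itgax, at 1.29 (SE 0.38). The antigen presentation gene H2-Aa was at 1.41 (SE 0.44) and the macrophage marker gene Adgre1 at 0.86 (SE 0.27). On the other side were Mertk, a receptor gene for engulfing dying cells, at -0.39 (SE 0.49), and the complement gene C1qb at -0.16 (SE 0.47). The PU.1 targets share genes with these markers, and Itgam is also in the list of mature granulocytes. The part of these cells in the PU.1 targets was not tested.

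Inflammatory targets of C/EBPb and C/EBPd had higher means for 11 of 14, with a median of 0.22, and 0 had an unadjusted p under 0.05. The median was 0.10 without control 4, 0.11 without KLF7 1 and 0.53 without KLF7 4. Arg1, the arginase 1 gene, was at -0.92 (SE 0.60), Nos2, an inducible nitric oxide synthase gene, at 0.46 (SE 0.33) and Il1b, the interleukin 1 beta gene, at 0.49 (SE 0.36). Of 11 amino acid response genes of ATF4, with which C/EBPg pairs, 9 had lower means and the median was -0.47, with 0 past the test. Shmt2 was at -0.96 (SE 0.50) and Psat1 at -0.92 (SE 0.43), both enzymes of serine and glycine metabolism. KLF7 1 was the lowest array for this list, at a mean of 6.60 against 7.49 to 8.13 on the other KLF7 arrays and 7.81 to 8.28 on control arrays. Without it the median was -0.18, and without both arrays numbered 2 it was -0.81.

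Genes known to be repressed by GFI1 had higher means for 7 of 10 (50.4% of all genes had), with a median of 0.17, and 0 passed. Id2, Gfi1b and Irf8, among others, are also in the list of partner factors below, so these lists are not separate observations. Id2, an inhibitor of basic helix-loop-helix factors, was at 10.5, 10.3, 10.23 and 9.60 on KLF7 1 to 4, against 8.89, 9.99, 9.33 and 8.94 on control 1 to 4. KLF7 4 was the 1 KLF7 array below a control array, control 2, and the difference was 0.87 (SE 0.28, 1.83-fold higher, adjusted p 0.439 in limma). Gfi1b, the paralog of Gfi1 in erythroid cells and megakaryocytes, was at -0.69 (SE 0.31). Irf8, a monocyte and dendritic cell factor gene, was at 0.29 (SE 0.19), and Hoxa9, a progenitor homeobox gene, at -0.50 (SE 0.34). The list's median was 0.04 without control 4.

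Among 26 partner factors and cofactors of the 7, 17 had higher means and 9 lower, with a median of 0.12, and 0 passed. At an unadjusted p under 0.05 there were 4 higher and 2 lower, where 4.65% and 3.56% of all genes were. Id2 and Gfi1b of the GFI1 list are among them. Of the 26, 3 had groups that did not overlap, where 5.22% of all genes did. Myb, a progenitor factor that acts with C/EBPa on the primary granule genes, was at 8.53, 9.26, 9.66 and 9.17 on KLF7 1 to 4, against 10.08, 10.04, 10.30 and 9.82 on control 1 to 4. The groups did not overlap, and the difference was -0.91 (SE 0.24, 1.88-fold lower, adjusted p 0.356 in limma). Irf4, which binds DNA with PU.1, was at 8.66, 6.95, 6.98 and 8.13 on KLF7 arrays, against 6.75, 6.70, 5.29 and 6.71 on control arrays. These groups did not overlap either, although KLF7 2 and KLF7 3 lay just above control 1, and the difference was 1.31 (SE 0.44, adjusted p 0.449 in limma). Rara, the retinoic acid receptor alpha gene, was at 0.58 (SE 0.20, adjusted p 0.454 in limma), also without overlap. The list's median was -0.05 without control 4.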

How the data were processed

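Total RNA of sorted cells was measured on 8 arrays. The authors deposited 1 intensity per probe set and array, for which the submitters' processing notes list RMA and Affymetrix Expression Console. RMA corrects background, normalises between arrays and summarises probes. Their versions and any later step are not stated. The intensities ran from 2.20 to 15393, a linear scale, and log2 was taken before every test. Array medians lay between 46.2 and 54.1, and the number of arrays limits the precision.

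Of 35554 probe sets, 21789 carried 1 gene symbol, 1621 several and 12144 none. Entrez numbers matched 21698 of them to the RefSeq table of GRCm38.p6, and 0 symbols changed. The brightest probe set per gene was kept, which left 19938 genes. All entered 1 fit by group in limma 3.58.1 under R 4.3.3 (lmFit, then eBayes with trend). The two-sided p-values were adjusted over all genes by the Benjamini-Hochberg method, and 0.05 was the threshold. The fit was tested on simulated data with noise drawn separately for each array, so that test did not cover spread shared between arrays.

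The 7 genes, the lists and the alternatives were chosen with earlier results of these data known. The text names the 7, Klf7, up to 4 genes per list by smallest p, and the 3 genes most like each of the 3 most variable members. Csf2rb2, Kit, Ly6g, Mertk and C1qb, outside this rule, are named as checks, the last 2 after their values were seen. Likeness was the root mean square difference of centred log2 levels. Figures were drawn with matplotlib 3.10.9.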

Additional observations from a re-analysis of the deposited data

How the results depend on the processing

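The 7 genes were refitted under 20 alternatives each: leaving out each array, leaving out both arrays numbered 2 or 4, a term for the arrays numbered 4, the replicate number as a block, quantile normalization again, cyclic loess, array medians, array weights, no intensity trend, the mean of a gene's probe sets, the dimmer 50% of genes left out, and log2(value + 16). None of the 7 passed in limma under any of them, and 6 kept their direction in all. Cebpg changed sign in 4, at 0.12 without KLF7 1, 0.02 without control 3, 0.07 without control 4 and 0.037 with array weights, and its range over the fits that each left out 1 array was -0.26 to 0.12. The number of genes past the test was 90 with the replicate block (75 higher and 15 lower) and 26 with the term for the arrays numbered 4, and 0 or 1 in the fits without a single array. Under the replicate block the smallest adjusted p of the 7 was 0.222, for Cebpe, and Csf3r passed at 0.0498 in limma. Cebpe and Gfi1 had unadjusted p of 0.0149 and 0.0219 in limma there, where 2691 of 19938 genes were under 0.05. Deviations of same-numbered arrays from their group means correlated across genes at 0.35, -0.13, 0.36 and 0.70 for numbers 1 to 4. For numbers 1, 3 and 4 this was the highest correlation of that KLF7 array with any control array, and for number 2 it was not. Arrays of unlike number correlated at -0.56 to 0.32. The labels do not say what a shared number means, and with 1 correlation below 0 the numbers were not treated as pairs. The cause of the added calls was not tested. The ratios between the 7 genes were recomputed without arrays as an alternative chosen after seeing the data. List medians are not tests, and 7 of 299 recomputed medians moved by more than the spread between arrays. With the dimmer 50% left out, no lymphoid marker remained.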
